A study of Mus musculus with 6 samples.

Results

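The genes described here encode subunits of the 5 complexes of oxidative phosphorylation and, where their symbols share the same stem, their assembly factors and isoforms. They were chosen by a symbol rule, set with earlier results of these data known. It took names that begin with Ndufa, Ndufb, Ndufc, Ndufs, Ndufv, Uqcr, Cox4 to Cox8 or Atp5, and Sdha, Sdhb, Sdhc and Sdhd. Of 22180 genes that the platform annotation names by a probe set with 1 symbol, 89 matched, and where a gene had several such probe sets, the one of highest mean on the 6 arrays was used. They comprised 42 genes named for complex I, 4 for complex II, 8 for complex III, 17 for complex IV and 18 for complex V. The symbol rule also took in 8 assembly factors, 2 pseudogenes (Atp5c1-ps and Uqcrh-ps1), Ndufa4 and its paralog Ndufa4l2, and the supercomplex factor Cox7a2l, which left 76 subunit genes.

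Oxidative phosphorylation is the last step of aerobic energy supply. Complexes I and II pass electrons from NADH and succinate to ubiquinone, complex III hands them to cytochrome c and complex IV to oxygen, while complex V, the ATP synthase, uses the proton gradient to make ATP. Neurons depend on it heavily, whereas astrocytes are known for a more glycolytic metabolism. All of these complexes except complex II also hold subunits encoded in mitochondrial DNA, for which no probe set with 1 symbol matched, so they were not analysed here.

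The study compared demyelinated brain lesions of wild type mice with those of a transgenic line whose GFAP+ astrocytes, unless they divide, can be driven into apoptosis. Mice aged 5 to 6 weeks of both genotypes received LPC, which strips myelin locally, and CID, the compound that triggers the ablation, 48 hours later; lesions were macrodissected 7 days after the LPC injection. Total RNA of each lesion was hybridised to 1 Affymetrix array, with 3 wild type and 3 transgenic lesions. The labels name neither the promoter of the transgene nor the mouse strain, and nothing states that each lesion had an animal of its own, so any p-value reflects the variation among these lesions alone. Values below are log2 intensities from the deposited RMA table, and a difference is the transgenic mean minus the wild type mean. Where 3 values of a group are given, they stand for its replicates 1, 2 and 3.

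Xist and Y-linked genes marked wild type replicates 1, 2 and 3 and transgenic replicate 2 as female and transgenic replicates 1 and 3 as male. Microglia and macrophage markers stood apart in wild type replicate 1, where the mean of 10 genes was 9.04 against 7.71 to 7.90 on the other wild type arrays and 7.67 to 8.37 on the transgenic arrays. Gfap, the filament protein of the targeted cells, read 9.83, 9.18 and 9.09 on the wild type arrays and 8.91, 8.82 and 9.24 on the transgenic arrays, so the groups overlapped. Neuron markers were well represented on every array, with list means of 9.01 to 9.28 on the wild type and 9.05 to 9.57 on the transgenic arrays. In tissue RNA, a change in the number of cells of a type and a change in RNA per cell cannot be told apart.

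Oxidative phosphorylation genes had higher mean levels in the transgenic lesions. Of 89 members, 78 had a higher and 11 a lower mean, where 48.7% of all genes with 1 symbol were higher, with a median difference of 0.33, or 1.26-fold, against -0.01 over all 41345 probe sets. In 49 members every transgenic array lay above every wild type array, whereas this held for 8.38% of all genes with 1 symbol; in 2 members, Ndufa4l2 and Atp5c1-ps, every transgenic array lay below, against 7% of all genes. No member passed an adjusted p of 0.05 in limma, and neither did any probe set of the table (0%). The smallest adjusted p of a member was 0.43. At an unadjusted p under 0.05, 29 members were higher and 1 lower, where 3.93% of all genes were higher and 3.06% lower.

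The single arrays show how this pattern was built. Relative to each gene's own mean, the median member read -0.39, -0.12 and 0.01 on the wild type arrays and 0.18, 0.25 and 0.06 on the transgenic arrays. Wild type replicate 1 was thus the lowest array, and it was the lowest for 68 of the 89 members, against 15.6% of all genes. Transgenic replicate 2 was the highest array for 40 members and transgenic replicate 1 for 34, against 29.6% and 23.3% of all genes. These 2 arrays were often extreme: they were also the lowest for 25.4% and 26.7% of all genes. Without wild type replicate 1 the median difference was 0.20, with 73 members higher, but the count at an unadjusted p under 0.05 fell from 29 to 7, while the share of all probe sets that were higher at that p went from 4.82% to 2.49%. That count was 14 without wild type replicate 2 (2.78% of all probe sets), 16 without transgenic replicate 1 (6.05%) and 17 without transgenic replicate 2 (5.16%). Leaving out wild type replicate 1 also lowered the difference of several members described below more than 1.5 times. Among these were Cox7a2 (to 0.43), Ndufs4 (0.39), Ndufs3 (0.33), Atp5md (0.28), Cox8a (0.22), Cox6b1 (0.21), Cox4i1 (0.17), Cox6a1, Cox5b and Ndufv1 (0.14 each). The differences of Atp5g1 (-0.0013) and Atp5g3 (-0.023) changed sign without it. The list is not complete. Wild type replicate 1 was also the array with the highest microglia and macrophage markers and the lowest neuron markers; their part in the difference was not tested.

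**Figure D1:**
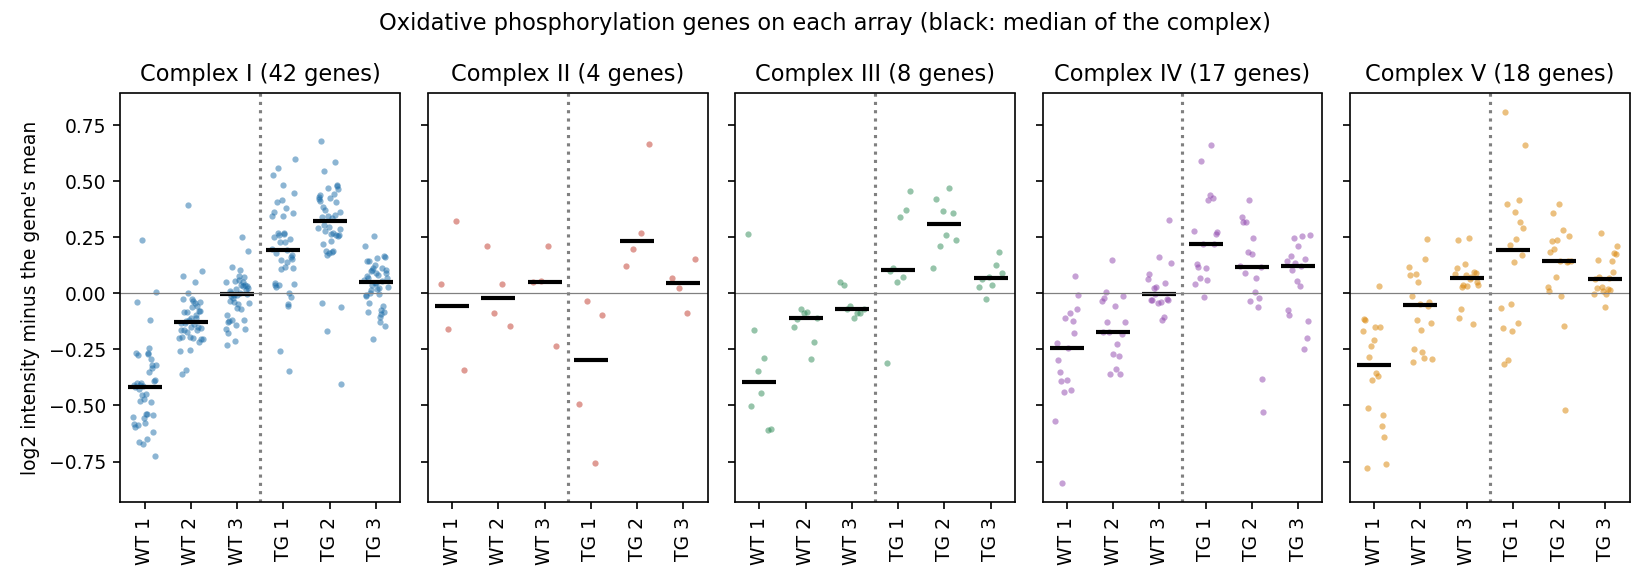
Each point is 1 gene on 1 array, plotted as its log2 intensity minus the mean of that gene over the 6 arrays; black bars are medians of the complex (WT, wild type; TG, transgenic; numbers are replicates). In complexes I, III, IV and V wild type replicate 1 had the lowest median, and all 3 transgenic medians lay above 0; in complex II transgenic replicate 1 was lowest.

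The comparison was also read by the sex of the transgenic lesions, since all wild type arrays were female. In the female arrays alone, which set transgenic replicate 2 against 3 wild type arrays, the mean was higher for 80 of 89 members and the median difference was 0.42. Without that array, 75 members were higher with a median of 0.31. There, male transgenic lesions were set against female wild type lesions, so genotype and sex cannot be told apart. Of 3 members on the X chromosome, Ndufa1, Ndufb11 and Cox7b, all had higher means, with a median of 0.26, and the 86 autosomal members had a median of 0.33.

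The probe sets of the members were bright, and bright genes in general leaned towards higher values in transgenic lesions. Their median level was 9.05, against 5.87 over all genes. Among 937 genes with a mean of at least 9, the median difference was 0.07 and 19% had every transgenic array above every wild type array. These 937 genes include the members of that level. Among the 45 members of that level the median was 0.35, and in 30 of them the groups did not overlap, all with transgenic above; in 7.9% of the genes of that level transgenic lay below. The 44 members below that level had a median of 0.29, with 19 above and 2 below. Cytosolic ribosomal protein genes, matched by symbol, had a median level of 8.96, with a range of 3.20 to 12.6. The match included Rps19bp1, a binding partner of a ribosomal protein. Over these 69 genes the median difference was 0.11. Every transgenic array lay above every wild type array in 6 of them and below in 2, against 8.38% and 7% of all genes with 1 symbol.

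Probe sets outside the choice of members gave similar values. A second probe set with 1 symbol was present for 9 members; 8 of these had higher means in transgenic lesions, 5 of them with no overlap, at a median of 0.51. For Ndufa11 the second probe set differed by 0.79 beside 0.67 for the chosen one, and for Cox7b by 0.76 beside 0.51. Only the dim second probe set of Atp5h was lower, at -0.14. A further 10 probe sets carry several symbols, at least 1 of them matching the rule. All 10 had higher means, with a median of 0.46, and in 6 the groups did not overlap. Over all probe sets, 8.54% had every transgenic array above every wild type array. These further probe sets were read on the same 6 arrays, so they are no independent replication.

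Promoter sequence is one feature that the choice by symbol did not use, and these genes are known targets of the nuclear respiratory factors NRF1 and GABPA. RefSeq windows (GRCm38.p6, 250 bases before to 50 after the start) were matched for 72 members by gene number. Both strands were searched for GCGCATGCG or CGCATGCGC (NRF1; the letters can overlap), CCGGAAG or its complement CTTCCGG (GABPA and other ETS factors), AAGATGGCG or CGCCATCTT (YY1) and TCAAGGTCA or TGACCTTGA (ESRRA). The NRF1 letters stood in 10 of the 72 members (13.9%) and in 1.95% of 27025 genes. The GABPA letters stood in 19 members (26.4%) and in 9.93% of genes, those of YY1 in 7 members and 1.64% of genes, and those of ESRRA in 2 members and 0.466% of genes. At least 1 of the 4 was found in 17 of 38 members whose transgenic arrays all lay above the wild type arrays and in 14 of the other 34. Shown are the 250 bases before the start of members that were among the smallest p-values of their complex and hold such a match in those 250 bases, with the match in capitals: Ndufa11 (chr17:56717512-56717761, plus strand, NRF1), Uqcrh (chr4:116075071-116075320, minus strand), Atp5e (chr2:174464102-174464351, minus strand) and Sdhd (chr9:50603850-50604099, minus strand), the last 3 with the GABPA letters.
Ndufa11: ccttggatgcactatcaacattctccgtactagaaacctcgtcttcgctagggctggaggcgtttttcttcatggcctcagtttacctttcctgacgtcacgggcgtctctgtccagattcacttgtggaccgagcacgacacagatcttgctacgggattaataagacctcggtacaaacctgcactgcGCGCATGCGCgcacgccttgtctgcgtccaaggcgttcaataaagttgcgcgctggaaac
Uqcrh: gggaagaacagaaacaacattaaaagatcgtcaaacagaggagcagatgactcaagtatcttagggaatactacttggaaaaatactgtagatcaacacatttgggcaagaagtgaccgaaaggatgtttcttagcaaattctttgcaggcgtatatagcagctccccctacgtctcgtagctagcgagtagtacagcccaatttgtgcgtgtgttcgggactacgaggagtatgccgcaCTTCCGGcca
Atp5e: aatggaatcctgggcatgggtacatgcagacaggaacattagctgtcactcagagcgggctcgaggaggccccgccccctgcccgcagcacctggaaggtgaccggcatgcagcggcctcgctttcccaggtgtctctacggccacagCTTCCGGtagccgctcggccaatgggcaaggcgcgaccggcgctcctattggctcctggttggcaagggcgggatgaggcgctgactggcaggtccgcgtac
Sdhd: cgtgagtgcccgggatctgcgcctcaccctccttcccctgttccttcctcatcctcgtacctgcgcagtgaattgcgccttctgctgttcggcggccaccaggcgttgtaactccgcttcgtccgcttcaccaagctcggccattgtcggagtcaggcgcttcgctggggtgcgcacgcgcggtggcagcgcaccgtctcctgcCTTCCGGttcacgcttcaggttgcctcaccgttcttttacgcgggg
The match lies 60 bases before the start in Ndufa11, 10 in Uqcrh, 102 in Atp5e and 46 in Sdhd, counted from its first base. A match describes these letters and is not evidence of binding.

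Complex I, the NADH dehydrogenase, held the most members. Of the 42 genes named for it, 40 had higher means in transgenic lesions, with a median of 0.37. In 25 every transgenic array lay above every wild type array, and 17 were higher at an unadjusted p under 0.05 in limma. Among the 32 subunit genes of these, the counts were 18 and 11. Over all genes with 1 symbol the shares were 8.38% and 3.93%, which also stand beside the counts of the other complexes. The 6 measured core subunits, which carry the flavin and iron-sulfur clusters or frame the ubiquinone site, all had higher means.

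Ndufs8, an iron-sulfur subunit, read 8.25, 8.57 and 8.79 on the wild type arrays and 9.47, 9.46 and 8.93 on the transgenic arrays. The groups did not overlap, and transgenic replicate 3 lay closest to wild type. The difference was 0.75 (SE 0.22, 95% confidence interval 0.24 to 1.26), or 1.68-fold, at an adjusted p of 0.462 in limma. Ndufv2, another iron-sulfur subunit, read 9.97, 10.28 and 10.43 on the wild type arrays and 10.71, 10.82 and 10.49 on the transgenic arrays, without overlap. Its difference was 0.45 (SE 0.18). Ndufs3, of the arm that faces the matrix, differed by 0.50 and Ndufs7, which holds the last iron-sulfur cluster before ubiquinone, by 0.38. Ndufs1 (0.26) and Ndufv1, which binds NADH (0.27), had the smallest differences of the core subunits.

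The 26 supernumerary subunits, which surround the core, had a median difference of 0.35, with 25 higher and 14 fully above. Ndufa11, a membrane subunit, read 10.05, 10.53 and 10.59 on the wild type arrays and 11.14, 11.20 and 10.85 on the transgenic arrays. Every transgenic value exceeded the wild type values, by a mean of 0.67 (SE 0.19, adjusted p 0.462 in limma). Ndufs4, a subunit whose loss in mice causes a Leigh-like encephalopathy, read 9.36, 9.88 and 10.11 on the wild type arrays and 10.53, 10.44 and 10.17 on the transgenic arrays. Its difference was 0.60 (SE 0.22), with wild type replicate 3 and transgenic replicate 3 only slightly apart. Ndufs5, at a level of 6.09, was the only member of this class with a lower mean (-0.20).

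The 8 assembly factors Ndufaf1 to Ndufaf8, which build complex I and are no part of it, all had higher means, with a median of 0.50. In 6 of them the groups did not overlap. Ndufaf2, a chaperone of late assembly, read 7.12, 7.26 and 7.36 on the wild type arrays and 7.72, 7.94 and 7.73 on the transgenic arrays. This gave the smallest adjusted p of all 89 members, 0.43 in limma, for a difference of 0.55 (SE 0.15), or 1.46-fold. Ndufaf5, a hydroxylase that acts on Ndufs7, read 6.69, 7.09 and 7.16 on the wild type arrays and 7.65, 7.70 and 7.43 on the transgenic arrays, a difference of 0.61 (SE 0.18). Ndufaf8 (0.04) showed almost none.

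Ndufa4 and Ndufa4l2 went opposite ways. Ndufa4, once assigned to complex I and now counted with complex IV, read 11.89, 12.20 and 12.25 on the wild type arrays and 12.52, 12.47 and 12.39 on the transgenic arrays, a difference of 0.35 (SE 0.15). Ndufa4l2, a paralog known as a hypoxia-inducible gene, read 6.86, 7.01 and 6.61 on the wild type arrays and 6.36, 6.45 and 6.41 on the transgenic arrays. It was the only member lower at an unadjusted p under 0.05, by -0.42 (SE 0.15, adjusted p 0.514 in limma). The 6 endothelial and mural markers, cells in which it is also found, had list means of 6.56 to 6.64 on the wild type and 6.22 to 6.82 on the transgenic arrays; their part was not tested.

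**Figure D2:**
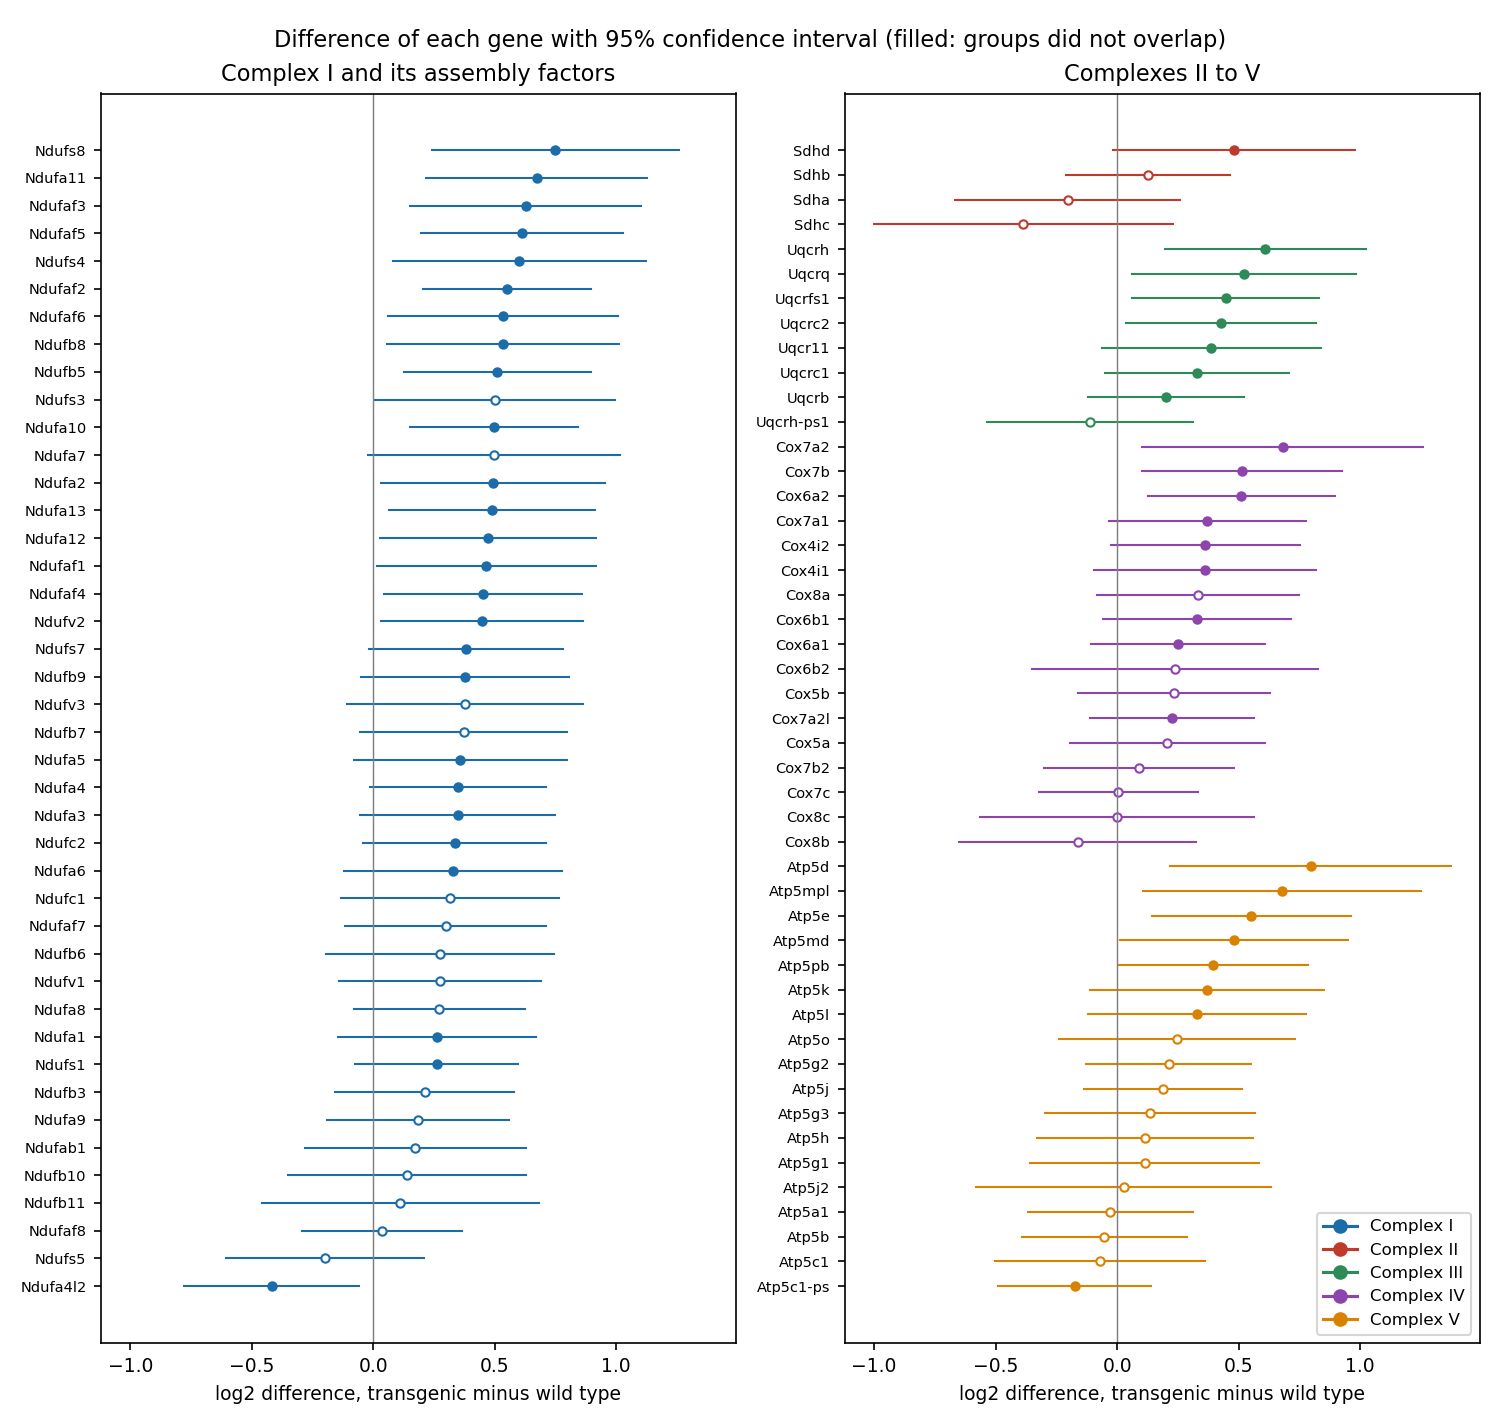
Log2 difference (transgenic minus wild type) of each of the 89 genes with its 95% confidence interval from limma, sorted within each complex; filled points are genes whose groups did not overlap. Most points lie right of 0, from 0.80 (Atp5d) down to -0.42 (Ndufa4l2), and 30 of the 89 intervals exclude 0 before adjustment.

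Complex II, succinate dehydrogenase, did not share the direction. It is also an enzyme of the citrate cycle. Its 4 genes split, with 2 higher, 2 lower and a median of -0.04, which turned to 0.02 when arrays were centred on their medians and to 0.09 without transgenic replicate 1. In the female arrays alone all 4 were higher, with a median of 0.17.

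Sdha, the flavoprotein, read 10.27, 10.44 and 10.28 on the wild type arrays and 9.74, 10.36 and 10.30 on the transgenic arrays. Only transgenic replicate 1 stood below the wild type range; the difference was -0.20 (95% confidence interval -0.67 to 0.26), and -0.0054 without that array. Sdhc, a membrane anchor, was lowest on the same array, at 8.18 against 8.84 to 9.26 on the others; its difference of -0.39 was -0.10 without that array and -0.62 without transgenic replicate 2. Sdhb, the iron-sulfur subunit, differed by 0.13 (SE 0.14). Sdhd, the other membrane anchor, read 7.77, 7.96 and 7.88 on the wild type arrays and 8.01, 8.78 and 8.26 on the transgenic arrays. It was the only one of the 4 without overlap, with a difference of 0.48 (SE 0.21, adjusted p 0.583 in limma), which was 0.27 without transgenic replicate 2. Whether complex II differed from the other complexes was not tested, since no score over members was tested.

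Complex III, the cytochrome bc1 complex, had a median difference of 0.41. All 7 subunit genes had transgenic values above every wild type value; the remaining member, the pseudogene Uqcrh-ps1, lay near the bottom of the intensity range, at 3.88. Uqcrh, the hinge protein at the cytochrome c side, read 9.996, 10.39 and 10.52 on the wild type arrays and 10.98, 10.96 and 10.79 on the transgenic arrays. The wild type values spread more widely than the transgenic ones, and the difference was 0.61 (SE 0.18, adjusted p 0.462 in limma). The Rieske iron-sulfur protein Uqcrfs1, which passes electrons on to cytochrome c1, was at 7.10, 7.10 and 7.31 against 7.47, 7.87 and 7.52. It differed by 0.45 (SE 0.16). Uqcrq, a small subunit next to cytochrome b, differed by 0.52, and the core proteins Uqcrc2 and Uqcrc1 by 0.43 and 0.33.

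Complex IV, cytochrome c oxidase, had 15 of 17 members higher, with a median of 0.25, and 9 without overlap. Its 9 broadly expressed subunits all had higher means, at a median of 0.33. Cox7a2, a small subunit, read 11.03, 11.70 and 11.87 on the wild type arrays and 12.47, 12.06 and 12.12 on the transgenic arrays. Wild type replicate 1 was far below the other arrays, and the difference was 0.68 (SE 0.25, adjusted p 0.514 in limma). Cox4i1, the regulatory subunit that binds ATP, was at 10.41, 10.94 and 11.04 against 11.25, 11.10 and 11.12, a difference of 0.36 (SE 0.20). Without overlap too were Cox7b (0.51), Cox6b1 (0.33) and Cox6a1 (0.25), and the groups overlapped in Cox8a (0.33), Cox5b (0.23), Cox5a (0.21) and Cox7c, whose means were nearly equal (0.005, 95% confidence interval -0.32 to 0.33). Without transgenic replicate 2, Cox5a differed by 0.088 and Cox5b by 0.13. A dimmer second probe set of Cox5b, at a level of 6.56, differed by 0.64 over all arrays, without overlap. Cox7a2l, which joins complexes III and IV into supercomplexes, differed by 0.23 without overlap.

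The 7 tissue isoforms of complex IV had a median level of 5.30, below the median of all genes, although Cox6a2 (7.58), Cox6b2 (6.80) and Cox4i2 (6.18) lay above it. Cox6a2, the isoform of heart and skeletal muscle that is also found in parvalbumin interneurons, read 7.15, 7.36 and 7.48 on the wild type arrays and 8.02, 7.65 and 7.84 on the transgenic arrays. The groups did not overlap, with a difference of 0.51 (SE 0.16, adjusted p 0.488 in limma). On the same arrays Pvalb, the marker of that interneuron class, was at 6.98, 7.30 and 7.89 on the wild type arrays and 8.89, 8.81 and 8.70 on the transgenic arrays. The list of 7 genes of that and neighbouring interneuron classes was mixed: Pvalb (1.41) and Vip (1.22) had the highest differences, 5 genes in all had higher means, and Tac1 (-0.66) and Sst (-0.15) had lower ones. The list had means of 7.49 to 7.96 on the wild type and 7.99 to 8.35 on the transgenic arrays. The 5 muscle markers had list means of 5.52 to 5.67 on the wild type and 5.55 to 5.87 on the transgenic arrays. They were mixed too: Acta1 (0.72) lay fully above, Ckm differed by 0.07, and 3 had lower means. The part of either cell type in the Cox6a2 difference was not tested. Cox4i2, an isoform of lung and of oxygen-sensing cells, differed by 0.36, and Cox7a1, of muscle, by 0.37, both without overlap at levels of 6.18 and 5.30. Cox6b2, a testis isoform (0.24), and Cox8b, a muscle isoform (-0.16), overlapped between groups.

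Complex V, the ATP synthase, is given by part, with the parts assigned after the values were seen. Whether the parts differed from each other was not tested. Over the 18 members of complex V, 14 were higher, with a median of 0.20, and 7 lay fully above. The catalytic head did not differ beyond its spread: Atp5b, the beta subunit that forms ATP, read 11.53, 11.72 and 11.75 on the wild type arrays and 11.49, 11.65 and 11.71 on the transgenic arrays. Its difference was -0.05 (95% confidence interval -0.39 to 0.29). Atp5a1, the alpha subunit, differed by -0.03 (-0.36 to 0.31) and Atp5c1, the gamma subunit of the central stalk, by -0.07 (-0.50 to 0.36). The median difference over the members, 0.33, lies inside the interval of Atp5c1 and just above the upper bounds of Atp5b and Atp5a1.

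The small subunits of the central stalk lay on the other side. Atp5d, the delta subunit, read 7.98, 8.45 and 8.65 on the wild type arrays and 9.56, 8.99 and 8.91 on the transgenic arrays. It had the highest difference of the 89 members, 0.80 (SE 0.25, 95% confidence interval 0.22 to 1.37), or 1.74-fold, at an adjusted p of 0.488 in limma, and transgenic replicate 1 was the highest array. Atp5e, the epsilon subunit, read 10.10, 10.36 and 10.54 on the wild type arrays and 11.01, 10.96 and 10.68 on the transgenic arrays, a difference of 0.55 (SE 0.18). Its second probe set differed by 0.66, and that of Atp5d by 0.51.

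Of the 5 small membrane subunits, 4 lay fully above, with a median of 0.37. Atp5mpl read 10.22, 10.69 and 11.02 on the wild type arrays and 11.64, 11.13 and 11.19 on the transgenic arrays, a difference of 0.68 (SE 0.24). Atp5md, a subunit of ATP synthase dimers, differed by 0.48 (SE 0.20). The 4 genes of the peripheral stalk, which holds the head in place, had a median of 0.22, with 1 fully above. The 3 genes of the proton-carrying c ring encode the same mature protein; Atp5g1, Atp5g2 and Atp5g3 differed by 0.11, 0.21 and 0.14, and the groups overlapped in each.

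**Figure D3:**
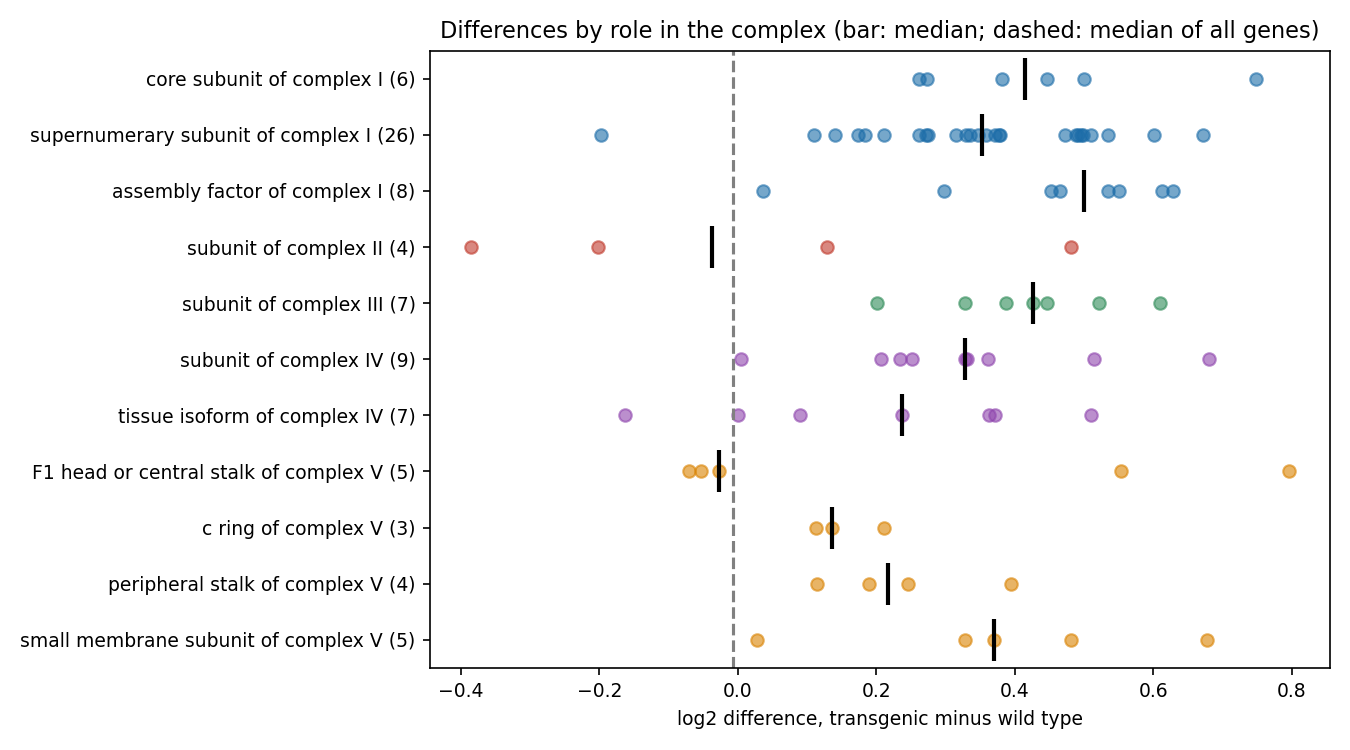
Log2 difference of each gene (points), grouped by its role in the complex, with the median of the role as a black bar; the dashed line is the median of all genes with 1 symbol, -0.01, and numbers in parentheses are genes. The complex II and F1 medians lie near the dashed line, at -0.04 and -0.03, and the assembly factors have the highest median, 0.50.

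**Figure D4:**
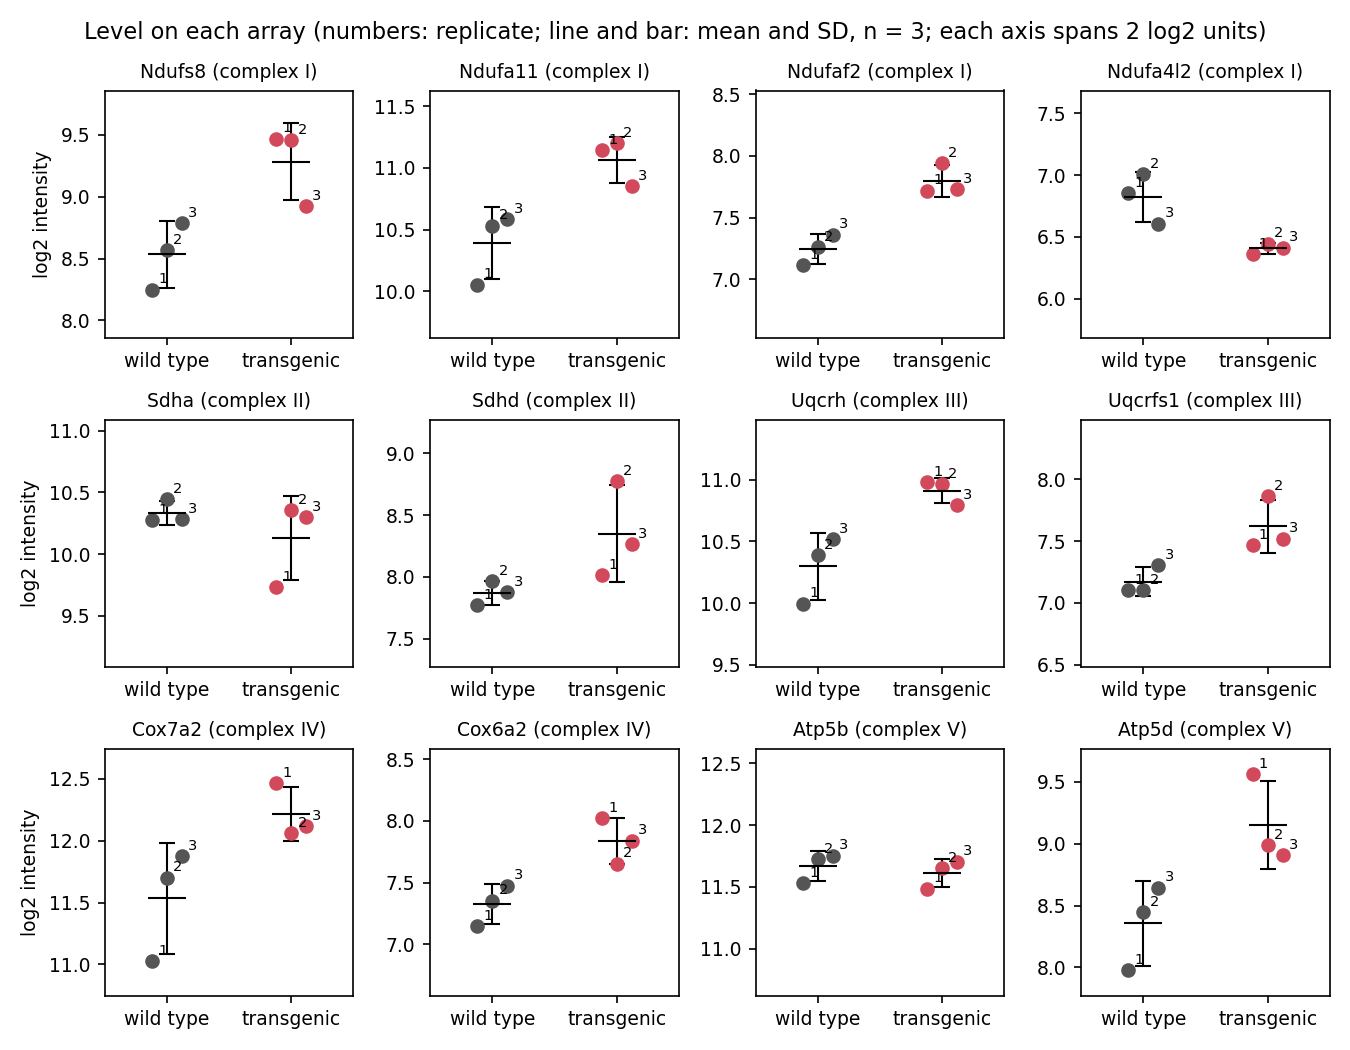
Log2 intensity of 12 of the genes on each array, with replicate numbers beside the points and the mean and SD (n = 3) as line and bar; every vertical axis spans the same range. Wild type and transgenic points are separate in all but Sdha and Atp5b, and Ndufa4l2 is the one gene with transgenic points below.

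Genes around the respiratory chain were read from lists drawn up by function. No gene of these lists passed an adjusted p of 0.05 in limma. Of 34 measured assembly factors outside the symbol rule, 32 had higher means, with a median of 0.27. At an unadjusted p under 0.05 in limma 9 were higher and none lower, against 3.93% and 3.06% of all genes. In 17 the transgenic arrays lay fully above, against 8.38% of all genes. Sdhaf4, which assembles complex II, read 8.12, 8.25 and 8.29 on the wild type arrays and 8.80, 8.98 and 8.68 on the transgenic arrays, a difference of 0.60. Its companion Sdhaf3 differed by 0.59 and Pet100, of complex IV assembly, by 0.88.

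Carriers and citrate cycle enzymes differed less. Of 13 genes for carriers, channels and electron transfer proteins, 11 had higher means at a median of 0.16. At an unadjusted p under 0.05 in limma, where 3.93% of all genes were higher, 1 was higher. That gene was Ckmt1, the mitochondrial creatine kinase, at 9.08, 9.42 and 9.46 against 9.72, 9.99 and 9.76 (difference 0.50). Slc25a4, the ATP/ADP carrier, differed by 0.29 and Etfa by 0.32, whereas the outer membrane channels Vdac1 and Vdac3 were at -0.03 and -0.02. Of 14 citrate cycle genes, 13 were higher with a median of 0.15, Sucla2 (0.44), Fh1 (0.36) and Dld (0.23) having the smallest p-values. The transgenic arrays lay fully above in 5 of these 14 genes and in 2 of the 13 carrier, channel and electron transfer genes, against 8.38% of all genes. Regulators of mitochondrial biogenesis split evenly, with 7 of 14 higher and a median of 0.01. Ppargc1a, the coactivator PGC-1 alpha, differed by 0.39 with overlapping groups, Tfb2m by 0.26, Gabpb1 by -0.17 and Nrf1 by -0.04.

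Cell type markers give the setting in which these differences were measured. All 9 myelin and oligodendrocyte markers had lower means in transgenic lesions, at a median of -0.87, with list means of 9.57 to 9.99 on the wild type and 8.56 to 9.09 on the transgenic arrays. Of 12 neuron markers, 10 were higher at a median of 0.19, yet on single arrays the list was low in both wild type replicate 1 (9.01) and transgenic replicate 1 (9.05). On the same arrays the median oxidative phosphorylation gene was at -0.39 and 0.18 relative to its own mean; the part of neurons in the difference was not tested. Striatal markers were high only in wild type replicates 2 and 3, at list means of 8.20 and 8.80 against 6.04 to 6.72 on the other 4 arrays. Astrocyte markers, 8 genes, had list means of 8.70 to 8.89 on the wild type and 8.12 to 8.73 on the transgenic arrays. Of these genes, 6 had lower means in transgenic lesions and 2 higher, at a median of -0.32. What share of the differences came with the lower myelin transcripts was not tested.

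**Figure D5:**
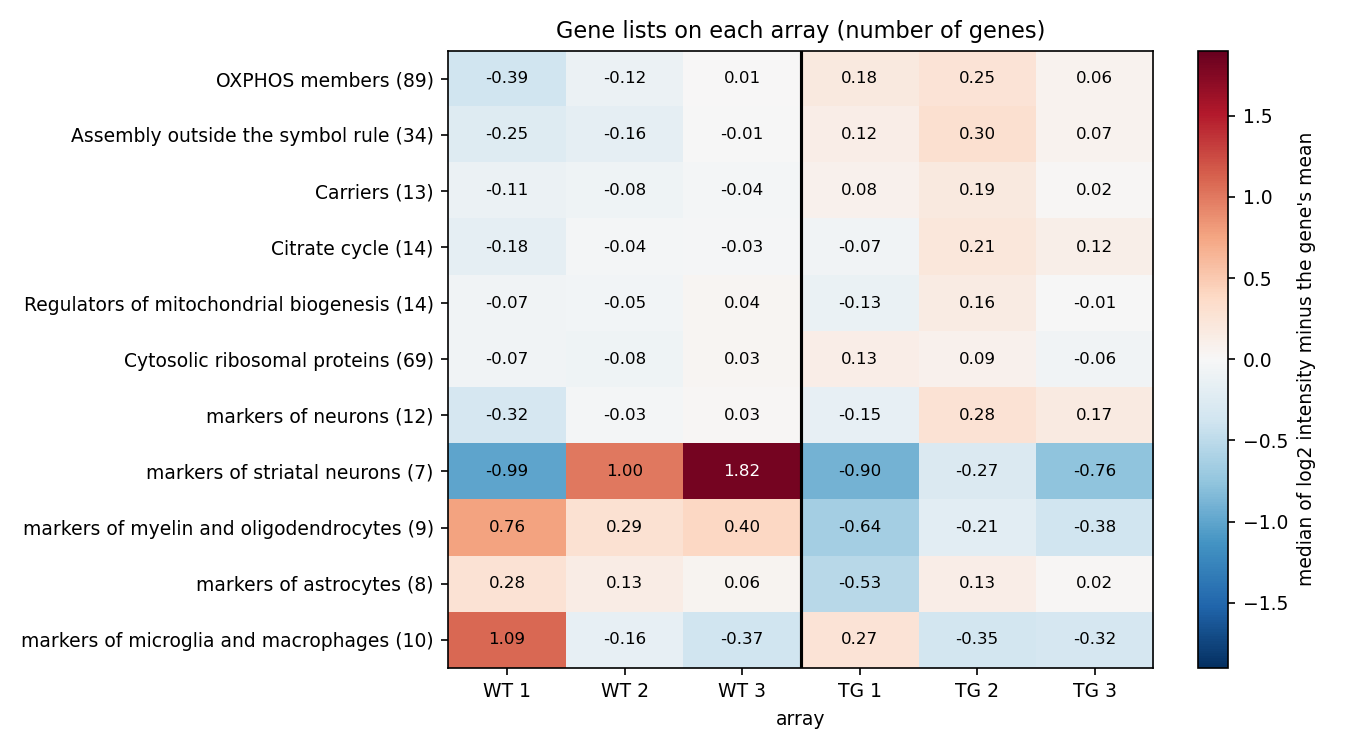
Median over each list of log2 intensity minus the gene's own mean, for each array (WT, wild type; TG, transgenic); the number of measured genes is in parentheses. The oxidative phosphorylation genes and the assembly factors outside the rule lie at -0.39 to 0.01 and -0.25 to -0.01 on the wild type arrays and at 0.06 to 0.25 and 0.07 to 0.30 on the transgenic arrays; myelin markers run the other way, from 0.29 to 0.76 in wild type and from -0.64 to -0.21 in transgenic lesions.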

How the data were processed

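The authors deposited RMA intensities of 6 Affymetrix arrays, made in Expression Console per the submitters' processing notes. The table is on a linear scale (lowest value 3.73) and was turned to log2 without a pseudocount. Tool versions and the genome build were not given in the sources used here; without detection calls or scan dates, no detection filter or batch term was applied. RMA equalises arrays over all probes, so differences are relative to the bulk of probe sets. After summary to probe sets the array medians still ranged from 5.34 on transgenic replicate 2 to 5.59 on transgenic replicate 1.

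Of 41345 probe sets, 23521 had 1 gene symbol. All entered limma 3.58.1 in R 4.3.3 (lmFit, eBayes, two-sided, no covariate), tested on simulated arrays, with Benjamini-Hochberg adjustment over the table. The number of arrays limits precision: the median half-width of a member's 95% confidence interval was 0.42, or 1.33-fold.

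Members and lists were chosen with earlier results of these data known; roles within complexes were assigned after the values were seen. Named members were the 4 of smallest unadjusted p in each complex, a fixed set of catalytic and isoform genes and the 3 of largest SD; Ndufs5, Ndufaf8, Ndufa1, Ndufb11, Atp5h, Cox7c, Cox7b2, Cox8c and the pseudogenes were named after their values were seen. No test was run over a list.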

Additional observations from a re-analysis of the deposited data

How the results depend on the processing

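The median difference of the 89 members kept its sign in every alternative run, from 0.20 without wild type replicate 1 to 0.42 with sex as a covariate, in the female arrays alone and without wild type replicate 3; it was 0.29 after quantile normalization, 0.39 after median centring, 0.25 with array weights and 0.33 for subunits only. Members passing an adjusted p of 0.05 in limma numbered 0 except with sex as a covariate (1, Ndufaf6), in the female arrays alone (1) and with array weights (3: Cox6a2, Ndufa10 and Ndufaf2), where 3.58%, 4.46% and 6.32% of all probe sets passed; the first 2 fits rest on transgenic replicate 2 alone, and the third gave transgenic replicate 3 a weight of 7.67 against 0.26 to 1.56 for the others. The count higher at an unadjusted p under 0.05 in limma was 29 (4.82% of all probe sets), and 14 with the replicate number as a block (3.74%). Whether same-numbered arrays were paired is not stated. Their deviations from the group means correlated at 0.012, -0.098 and -0.068, which cannot show whether such lesions shared a day or batch. The count higher was 18 without moderation of variances (4.24%), 34 with array weights (13.1%) and 23 with sex as a covariate (8.43%). It was 7 to 30 when single arrays were left out (2.49% to 6.05%). The count lower, 1, was 0 with median centring, the replicate block or subunits only, 2 with sex as a covariate, in female arrays or without moderation, and 0 to 2 when single arrays were left out. The cause of these shifts was not tested.

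The complex II median, -0.04, was 0.17 with sex as a covariate and in the female arrays. Of 672 values of named genes under the alternatives, 20 changed sign, all of genes whose interval spans 0. With sex as a covariate and in the female arrays these were Atp5a1 (0.015), Atp5c1 (0.15), Sdha (0.023) and Sdhc (0.076); with median centring, Atp5a1 (0.026) and Atp5b (2.8e-04); with array weights, Atp5b (0.020) and Cox6b2 (-0.072). When single arrays were left out, Atp5a1 ranged from -0.12 to 0.025, Atp5b from -0.12 to 0.011, Atp5c1 from -0.18 to 0.069, Atp5g1 from -0.0013 to 0.29, Atp5g3 from -0.023 to 0.24 and Cox6b2 from -0.036 to 0.42. Without detection calls, dim members such as Cox7b2, Cox8b and Cox8c cannot be told from background.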
